A study of Mus musculus with 6 samples.

Results

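Integrins are the cell surface receptors with which cells hold on to the extracellular matrix and to each other, and the genes described here are the integrin subunits and the proteins that tie them to the actin cytoskeleton. The members were taken by name from a table of 33924 gene names: every alpha subunit gene named Itga, every beta subunit gene named Itgb with 1 digit, and 13 named focal adhesion proteins. The rule found 39 genes, namely 18 alpha subunits, 8 beta subunits, and the talins Tln1 and Tln2, the kindlins Fermt1, Fermt2 and Fermt3, vinculin (Vcl), paxillin (Pxn), focal adhesion kinase (Ptk2), integrin-linked kinase (Ilk), the parvins Parva, Parvb and Parvg, and tensin 1 (Tns1). The 26 integrin genes were grouped by where they are best known: 5 epithelial, 7 stromal, 9 leukocyte and platelet, and 5 broadly expressed subunits. All 39 passed the filter on low counts and were tested.

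An integrin at the cell surface is a pair of an alpha and a beta subunit, and the pair sets which ligand is bound: laminins, collagens, fibronectin and other RGD proteins, or counter-receptors on other cells. Talins and kindlins bind the tails of beta subunits and switch the receptor to its binding state. Vinculin, paxillin, focal adhesion kinase, tensin and the complex of integrin-linked kinase with parvins then connect it to actin and to signalling. In lung, collagen and nephronectin receptors are prominent on alveolar fibroblasts, laminin receptors on the epithelium, and the integrins that pair with Itgb2 or Itgb7 on leukocytes.

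Bulk RNA sequencing was done on lung tissue of FVB/NJ mice, an inbred strain. Control lung (3 libraries, replicates 1, 2 and 3) is labelled normal lung, and the tumour group (3 libraries, replicates 1, 2 and 4) is labelled as lung tumour induced by urethane, a chemical carcinogen; mice had been given saline or urethane at 1 g per kg into the peritoneum, and tissue was harvested at 6 months. The labels give neither the animals' age and sex, nor how tumour was cut from lung, nor whether each library is a separate animal, so the p-values measure the spread between these libraries, which may in part be technical. The question is how the integrin and focal adhesion transcripts of tumours compare with those of control lung.

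The libraries held 38996532 to 62336537 counted reads. Before TMM scaling, 3 reads correspond to 0.0481 to 0.0769 CPM (reads scaled to library size). All levels below are CPM after TMM scaling unless stated. Tumour replicate 1 stood apart from the other tumours, with a chi-square per degree of freedom of 258 and 203 against them, where they differed from each other by 59.1. Tumour replicate 2 had 187063 reads of Xist and at most 12 of any Y-linked gene checked, whereas the other 5 libraries had at most 1517 of Xist and at least 1384 of each Y-linked gene. All 5 markers of alveolar type 2 cells were higher in tumours, and every marker listed for club, ciliated, endothelial, smooth muscle, mesothelial, T and NK, B, neutrophil and heart muscle cells was lower. Less RNA of a cell type in bulk tissue can come from fewer cells or from less RNA per cell, which cannot be told apart here.

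In tumours most of the integrin and focal adhesion genes that moved were lower. Of the 39, 22 passed the test (56.4%), 4 of them higher and 18 lower in tumours (quasi-likelihood F test of edgeR; called below 0.05 after Benjamini-Hochberg adjustment over 20001 genes). Over all genes tested 42% passed, 18.1% higher and 23.8% lower. By group, 40% of the epithelial, 71.4% of the stromal, 55.6% of the leukocyte and platelet and 40% of the broadly expressed integrin genes passed. Of the focal adhesion proteins 61.5% passed. The median log2 fold change of the 39 was -0.61, against 0.01 over all genes. The 4 genes that rose were all alpha subunits: Itga9, Itga7, Itga6 and Itgav. The largest fall was that of another alpha subunit, Itga8, by 6.14 on the log2 scale. Levels of 26 genes did not overlap between the groups, 5 higher and 21 lower, where 56% of all genes did not overlap (26.1% higher and 29.9% lower). Of the 22 calls, 17 held in each of the 6 fits that left out 1 library, and the calls of Itga6, Itga5, Itgal, Tln1 and Pxn did not. Over these 6 fits 17 to 26 of the 39 passed. Without tumour replicate 1, 26 genes passed, and without tumour replicate 2, 24, while each of the other fits gave fewer than 22.

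**Figure D1:**
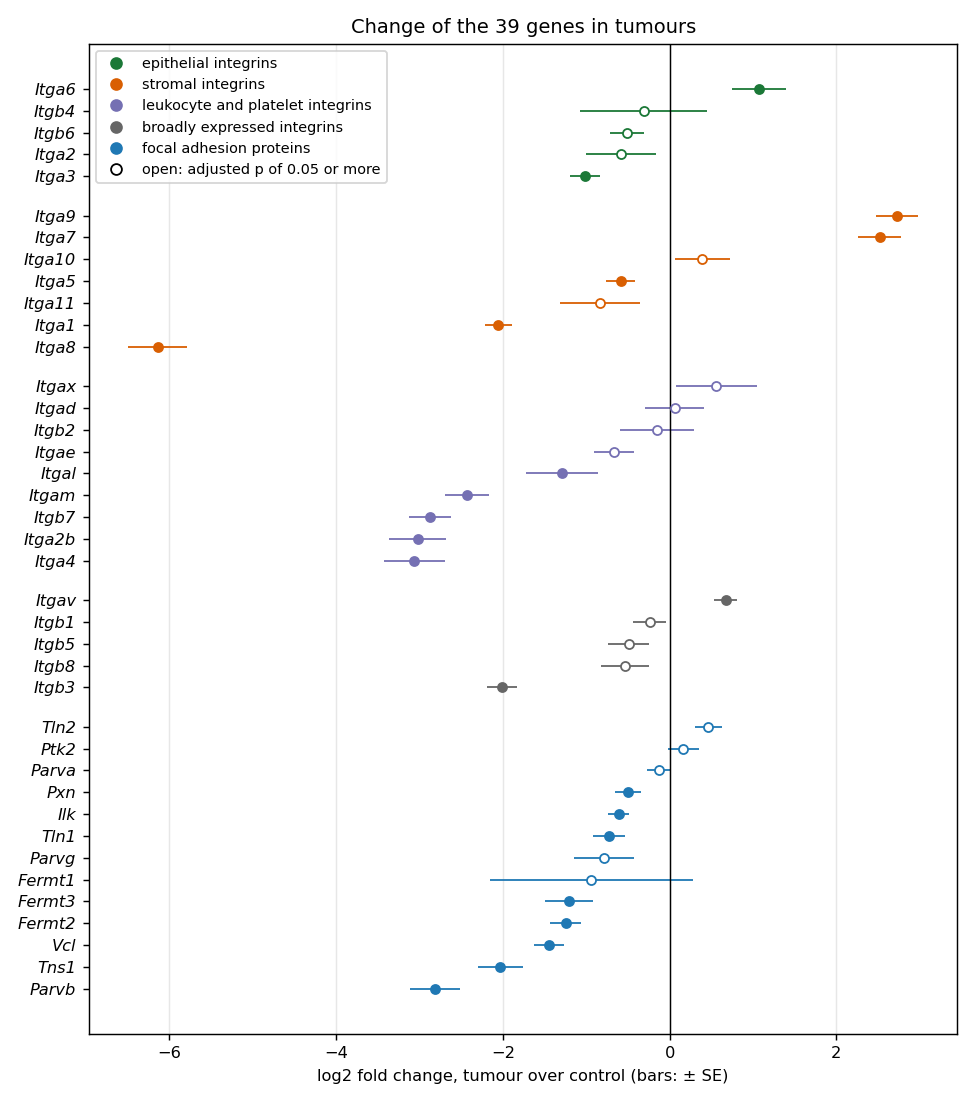
Log2 fold change of tumour over control for each of the 39 genes, with bars of 1 standard error, in 5 colour-coded groups; filled points have an adjusted p under 0.05 and open points do not. Itga9, Itga7, Itga6 and Itgav are the filled points to the right of 0, and Itga8 at -6.14 is the farthest to the left.

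Among the 7 stromal integrins, 2 rose, 3 fell and 2 did not pass the test. Itga8 encodes the subunit that with beta 1 forms the nephronectin receptor of lung fibroblasts and smooth muscle, and lies on chromosome 2 from 12028259 to 12223547 (minus strand, mm9). It stood at 551, 592 and 482 CPM in control replicates 1, 2 and 3, and at 7.98, 10.5 and 4.51 CPM in tumour replicates 1, 2 and 4. Every tumour was far below every control, and tumour replicate 4 was the lowest. The fall was 70.5-fold (log2 fold change -6.14 ± 0.35 SE, n = 3 per group, adjusted p = 1.63e-05 by edgeR). Of its exon bases 5.07% lie in the gene E030013I19Rik, which fell alongside by 6.49 on the log2 scale.

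Itga1, the collagen receptor subunit of mesenchymal and endothelial cells, was lower as well. Its levels were 264, 344 and 319 CPM in controls and 71.8, 80.9 and 70.5 CPM in tumours. The tumours lay within a narrow band below all controls, a 4.15-fold difference (log2 fold change -2.05 ± 0.16 SE, adjusted p = 5.18e-05 by edgeR). Itga5, which pairs with beta 1 as the classical fibronectin receptor, differed less, from 31.3 ± 4.9 to 20.9 ± 2.8 CPM (SD, n = 3), and the log2 fold change was -0.59 ± 0.18 (SE, adjusted p = 0.0287 by edgeR). Its call was lost when control replicate 2, control replicate 3 or tumour replicate 4 was left out, at values of -0.60, -0.43 and -0.55.

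Against this, Itga9 and Itga7 were higher in every tumour than in any control. Itga9, whose product pairs with beta 1 and binds tenascin C, osteopontin and VCAM-1, lies on chromosome 9 from 118515808 to 118810121 (plus strand, mm9). Its levels were 76.1, 78.6 and 91.0 CPM in controls and 362, 659.8 and 605 CPM in tumours. Tumour replicate 1 was the lowest of the tumours and still well above the controls. The rise was 6.62-fold (log2 fold change 2.73 ± 0.25 SE, adjusted p = 9.65e-05 by edgeR), and between 2.57 and 2.98 on the log2 scale with any 1 library left out.

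Itga7, the laminin receptor subunit best known from muscle, lies on chromosome 10 from 128370869 to 128395333 (plus strand, mm9). It rose from 8.64, 10.01 and 10.4 CPM to 69.6, 61.2 and 35.5 CPM. All tumours were above all controls, with tumour replicate 4 the lowest of them, and the rise was 5.73-fold (log2 fold change 2.52 ± 0.26 SE, adjusted p = 0.000158 by edgeR). Itga10 and Itga11, both collagen receptor subunits, were scarce, at no more than 5.7 CPM in any library. Their groups overlapped and neither passed the test; without tumour replicate 2, Itga11 did (log2 fold change -1.43, adjusted p = 0.0321, against -0.84 with all libraries).

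Markers of the cells in which stromal integrins are best known were mostly lower in tumours. All 7 endothelial markers were lower, their summed level being 1689 to 2481 CPM in controls and 149.9 to 226 CPM in tumours. Of 7 fibroblast markers 6 were lower (1387 to 1577 against 154 to 270.2 CPM), and so were all 8 of smooth muscle and pericytes (372 to 645 against 109.5 to 146 CPM). Each of these markers still had reads in the tumours. Itga8 and Itga1 moved in the same direction as these lists, and Itga9 and Itga7 in the opposite one; the lists' part in any of these results was not tested.

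**Figure D2:**
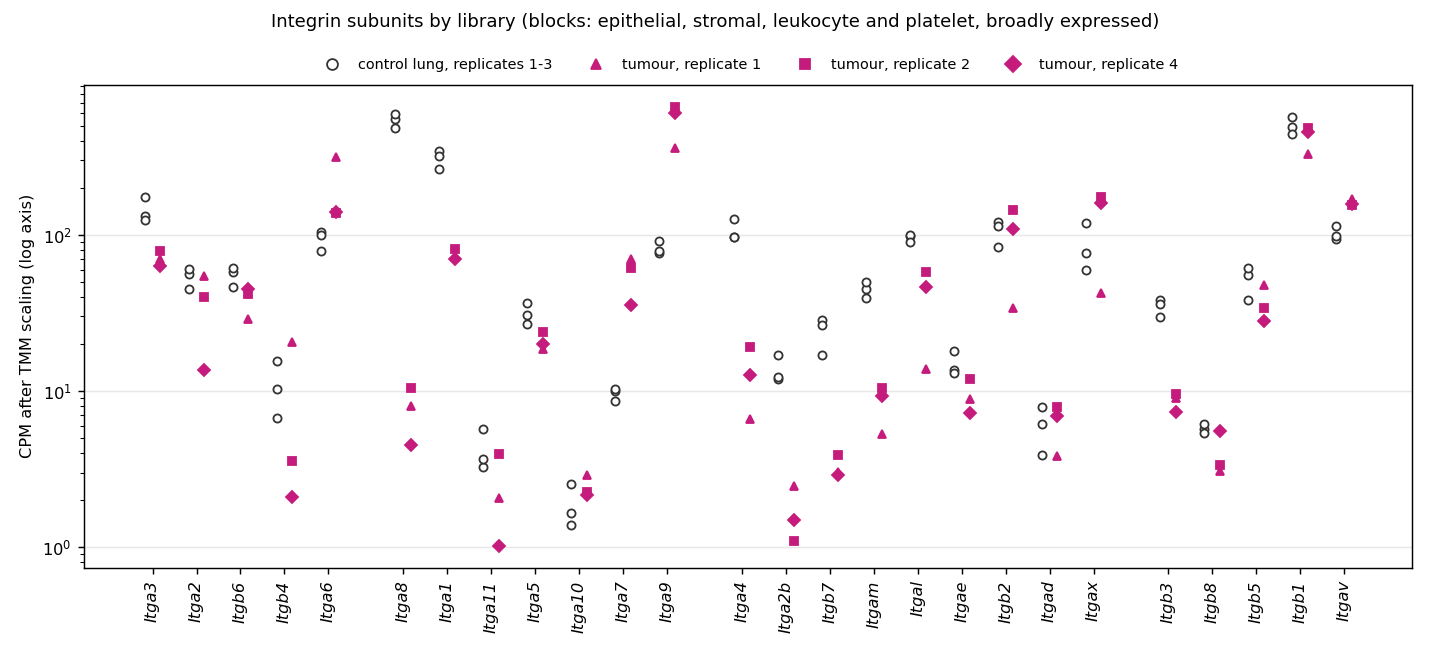
Level of each integrin subunit in every library, in CPM on a log axis; open circles are the 3 control libraries and filled symbols the 3 tumours, with a symbol for each. Genes are in 4 blocks, and within a block from the most lowered to the most raised. In the stromal block the tumours of Itga8 lie at 4.51 to 10.5 CPM below controls at 482 to 592, and those of Itga9 and Itga7 above their controls.

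The 5 epithelial integrin genes did not move together: 1 rose, 1 fell and 3 did not pass the test. Itga6, whose product pairs with beta 1 or beta 4 as a laminin receptor, was at 78.5, 104 and 99.4 CPM in controls and at 315, 139 and 141 CPM in tumours. All tumours were higher, tumour replicate 1 by far the most. The log2 fold change was 1.07 ± 0.33 (SE, adjusted p = 0.0293 by edgeR). The call was lost without control replicate 1, 2 or 3 (0.96, 1.16 and 1.15 on the log2 scale, with adjusted p = 0.0990, 0.0677 and 0.0816) and with scaling to library size alone (0.98, adjusted p = 0.0599). Over all 6 fits with 1 library left out, the log2 fold change of Itga6 ran from 0.60 to 1.28. Itga6 lies on chromosome 2 from 71583673 to 71696473 (plus strand, mm9).

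Itga3, the other alpha subunit of epithelial laminin receptors, went the opposite way. Its levels were 133, 123.9 and 174 CPM in controls and 69.9, 79.4 and 63.5 CPM in tumours. The groups did not overlap, and the fall was 2.02-fold (log2 fold change -1.02 ± 0.18 SE, adjusted p = 0.00226 by edgeR). Itgb4, the partner of Itga6 in hemidesmosomes, was at 6.68, 10.3 and 15.5 CPM in controls and at 20.5, 3.55 and 2.08 CPM in tumours. Tumour replicate 1 was above all controls and the other tumours below all of them, so that the log2 fold change of -0.31 (adjusted p = 0.774) became -1.90 (adjusted p = 0.00421) without tumour replicate 1.

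Itga2, a collagen receptor subunit, was at 54.6, 39.8 and 13.7 CPM in tumours against 44.9, 56.4 and 60.8 CPM in controls. Tumour replicate 1 lay within the control range and the other tumours below it. It did not pass the test (log2 fold change -0.58, adjusted p = 0.306). Itgb6, the epithelial partner of Itgav that activates TGF-beta, was at 57.5, 46.2 and 61.5 CPM in controls and at 29.1, 41.7 and 45.2 CPM in tumours. Each tumour was below each control, but the log2 fold change of -0.51 did not pass (adjusted p = 0.0744). Alveolar type 2 markers summed to 7876 to 12996 CPM in controls and 22186 to 52074 CPM in tumours, whereas 4 of 5 alveolar type 1 markers, all 4 club and all 5 ciliated markers were lower. Which epithelial cells the values of this group come from was not tested.

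Of the 9 leukocyte and platelet integrins, 5 fell, none rose and 4 did not pass the test. Itga4, the subunit with which lymphocytes bind VCAM-1, was at 96.9, 127 and 97.0 CPM in controls and at 6.65, 19.2 and 12.6 CPM in tumours. No tumour came near a control, and the fall was 8.34-fold (log2 fold change -3.06 ± 0.36 SE, adjusted p = 0.000318 by edgeR). Itgb7, its partner in gut-homing lymphocytes, fell from 17.1, 28.5 and 26.5 CPM to 3.04, 3.91 and 2.88 CPM, a 7.32-fold difference without overlap (log2 fold change -2.87 ± 0.26 SE, adjusted p = 8.07e-05). Itga2b, the platelet fibrinogen receptor subunit, fell from 11.9, 16.9 and 12.3 CPM to 2.45, 1.10 and 1.497 CPM, an 8.12-fold difference without overlap (adjusted p = 0.000250). Itga4 shares 8.04% of its exon bases with Cerkl, which was lower too (log2 fold change -2.53).

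Of the alpha subunits that pair with Itgb2 on leukocytes, Itgal and Itgam passed the test. Itgal, the alpha subunit of LFA-1, with which lymphocytes and other leukocytes bind ICAMs, was at 98.4, 100.01 and 90.01 CPM in controls and at 13.9, 57.9 and 46.1 CPM in tumours. All tumours were lower, tumour replicate 1 most of all, and the log2 fold change was -1.29 ± 0.43 (SE, adjusted p = 0.0433 by edgeR). The call was lost in 4 of the 6 fits with 1 library left out: without control replicate 1, 2 or 3 (-1.27, -1.26 and -1.31) and without tumour replicate 4 (-1.41). Itgam, the subunit of the complement receptor of neutrophils and monocytes, fell from 45.004, 50.1 and 39.2 CPM to 5.30, 10.4 and 9.30 CPM, 5.37-fold and without overlap (log2 fold change -2.43 ± 0.26 SE, adjusted p = 0.000206).

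Itgax, which marks alveolar macrophages and dendritic cells, did not pass the test. Its levels were 119, 76.8 and 59.8 CPM in controls and 42.4, 174 and 159.9 CPM in tumours. Tumour replicate 1 was the lowest of all 6 libraries and the other tumours the highest, so that the log2 fold change of 0.56 did not pass (adjusted p = 0.393); without tumour replicate 1 it was 1.00 (adjusted p = 0.0143). Itgb2 itself was at 121, 113 and 84.1 CPM in controls and at 34.1, 144 and 108 CPM in tumours. Tumour replicate 1 was again the lowest, the groups overlapped, and the log2 fold change of -0.15 (adjusted p = 0.811) turned to 0.28 (adjusted p = 0.282) without it.

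Itgad, a close relative of Itgax on macrophages, was at 3.82 to 7.94 CPM in all libraries (log2 fold change 0.06, adjusted p = 0.906). Of its transcript's 32-base words, 28.4% occur in another gene, chiefly Itgax, and some reads of these genes may be uncertain. Itgae, the alpha subunit of lymphocytes lodged in epithelium, was lower in each tumour than in each control, at 14.9 ± 2.7 against 9.37 ± 2.45 CPM (SD, n = 3), but did not pass (log2 fold change -0.67, adjusted p = 0.0557); with DESeq2 and limma-voom it did (adjusted p = 0.0314 and 0.0448), and also without tumour replicate 2 (-0.88, adjusted p = 0.0232).

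Itgam, Itgax and Itgad lie side by side on the plus strand of chromosome 7 in mm9, from 135206154 to 135271674, 135273061 to 135294171 and 135297890 to 135349015, and of these only Itgam passed the test; the difference between the genes was not tested. The 250 bases before the RefSeq start sites of Itgam (chr7:128062390-128062639, plus strand, GRCm38.p6) and Itgax (chr7:128129300-128129549, plus strand) are shown so that these neighbours can be compared; capitals mark the PU box GAGGAA, on either strand, in Itgam and the AP-1 motif TGANTCA in Itgax.
Itgam: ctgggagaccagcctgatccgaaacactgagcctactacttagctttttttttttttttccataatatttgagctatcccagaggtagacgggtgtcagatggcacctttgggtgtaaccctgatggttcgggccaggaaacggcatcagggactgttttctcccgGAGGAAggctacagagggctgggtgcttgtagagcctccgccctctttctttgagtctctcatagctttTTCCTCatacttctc
Itgax: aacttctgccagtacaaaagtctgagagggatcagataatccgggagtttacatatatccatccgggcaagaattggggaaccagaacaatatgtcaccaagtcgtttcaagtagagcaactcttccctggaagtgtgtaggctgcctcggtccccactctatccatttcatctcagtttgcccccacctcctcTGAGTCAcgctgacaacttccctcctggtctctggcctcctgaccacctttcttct
The PU box, a core bound by the myeloid factor PU.1, ends at positions 79 and 10 before the start in Itgam, and the Itgax window does not hold these letters. It was found in 23.2% of all 32851 such windows and in those of 10 of the 27 genes of the rule with a window, among them the epithelial Itga3 and Itgb6. The AP-1 motif was in 6.75% of all windows and in that of Itgax alone among these 27. The matches describe letters and were not tied to any value.

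Markers of several leukocyte types were lower in tumours. All 8 T and NK cell markers were lower (summed 74.4 to 120.5 CPM in controls against 6.55 to 21.1 CPM in tumours), all 5 of B cells (69.2 to 142 against 8.61 to 18.3 CPM) and all 6 of neutrophils (348 to 522 against 7.57 to 46.5 CPM). Macrophage markers did not move as 1 list: 1 of 8 rose, 2 fell, and the sums overlapped, at 338 to 517 and 171 to 464 CPM, with tumour replicate 1 at the bottom. Of 5 dendritic markers 4 fell and 1 rose, and of 5 platelet markers 4 fell while Pf4, which macrophages can also express, rose from 7.73 to 59.5 CPM. Of the 9 leukocyte and platelet integrin genes, 8 were highest in tumour replicate 2 among the tumours and 6 lowest in tumour replicate 1. Over all 39 genes these counts were 24 and 17. What part these cell types had in the integrin values was not tested.

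Of the 5 broadly expressed subunits, 1 rose, 1 fell and 3 did not pass the test. Itgb1, the partner of most alpha subunits, was at 493, 565 and 443 CPM in controls and at 329, 484 and 457 CPM in tumours. The groups overlapped and the log2 fold change of -0.24 ± 0.20 (SE) did not pass the test (adjusted p = 0.373). Itgav, the alpha subunit of RGD receptors that can pair with several beta subunits, was at 113, 93.6 and 98.2 CPM in controls and at 171, 156 and 158 CPM in tumours. Every tumour was above every control, a 1.59-fold rise (log2 fold change 0.67 ± 0.14 SE, adjusted p = 0.00577 by edgeR).

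None of the beta partners of Itgav passed the test as higher. Itgb3, known from platelets, endothelium and osteoclasts, fell from 29.8, 38.2 and 36.1 CPM to 9.01, 9.52 and 7.37 CPM, 4.02-fold and without overlap (log2 fold change -2.01 ± 0.18 SE, adjusted p = 8.13e-05 by edgeR). Itgb5, a receptor subunit for vitronectin, was at 38.3 to 61.0 CPM in controls and 28.1 to 48.1 CPM in tumours, and its log2 fold change of -0.49 did not pass (adjusted p = 0.149). Tumour replicate 1 was the highest tumour, and without it the difference was -0.70 (adjusted p = 0.0226). Itgb8, a TGF-beta activating partner, was scarce, with 5.38 to 6.11 CPM in controls and 3.06 to 5.51 CPM in tumours. It did not pass at a log2 fold change of -0.53 (adjusted p = 0.168), but did at -0.83 without tumour replicate 4 (adjusted p = 0.0451).

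Dividing CPM by exon length lets levels of different genes be set side by side. On this per-length scale Itga8 made up 29.7% ± 2.2 (SD, n = 3) of the summed alpha subunit level in control lung and 0.525% ± 0.185 in tumours. Itga9 went from 4.27% ± 0.52 to 34.7% ± 6.4, and by per-length level it moved from the 18th to the 2nd place among the 39 genes while Itga8 moved from the 3rd to the 33rd. Itga1 made up 15.4% and then 4.67%, Itga7 0.908% and then 6.64%, and Itgav 3.79% and then 7.65%; these shares did not overlap between the groups. That of Itga6 was 3.53%, 4.44% and 4.53% in controls and 20.3%, 6.66% and 7.84% in tumours, and its tumour mean of 11.6% ± 7.6 (SD, n = 3) was 7.25% without tumour replicate 1. The share of Itgax did overlap, at 6.07% to 11.9% in controls and 6.09% to 19.9% in tumours. A share falls when others rise, so these values are not independent of each other.

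Itgb1 had the largest share of the beta subunits in every library. It made up 62.7%, 63.7% and 59.8% of the summed per-length beta level in controls and 69.5%, 63.9% and 67.7% in tumours. The tumours were all higher, by a mean of 4.98 percentage points. Itgb7 went from 4.44% ± 1.08 to 0.786% ± 0.160 and Itgb3 from 3.02% ± 0.37 to 0.989% ± 0.298 (SD, n = 3), without overlap. For each of these 3 shares an exact permutation test, two-sided, returned p = 0.1, which 3 against 3 libraries cannot go below, and 0.267 after adjustment over 8 subunits. The shares of the other 5 beta subunits overlapped between the groups.

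**Figure D3:**
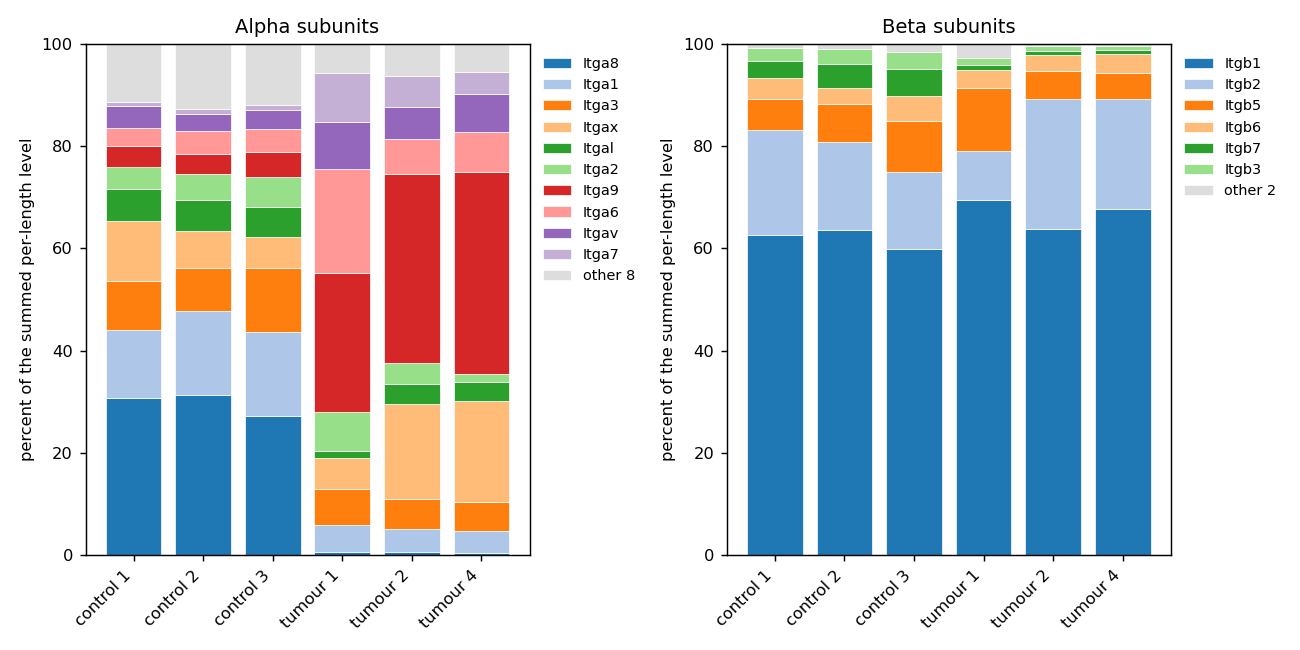
Share of each subunit in the summed per-length level of alpha subunits (left) and beta subunits (right), in percent, with 1 bar per library and the least abundant subunits pooled. Itga8 fills 27.2% to 31.3% of the alpha bars in controls and Itga9 27.4% to 39.5% in tumours, while Itgb1 is the largest part of every beta bar.

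Ratios of per-length levels within a library, given as descriptions, show how pairs of genes shifted. Itga9 over Itga8 was 0.125 to 0.179 in controls and 42.9 to 127 in tumours. These are the most raised and the most lowered of the 39 genes, so this ratio had to separate the groups. Itgax over Itgam was 2.41 to 4.16 and then 12.6 to 27.1, and Itgal over Itgb2 0.390 to 0.512 and then 0.192 to 0.204. Itga6 over its hemidesmosome partner Itgb4 was 4.97 to 9.14 in controls and 11.95 to 52.5 in tumours, and Itgav over Itgb6 1.06 to 1.34 and then 2.32 to 3.88. Itgae over its partner Itgb7 went from 0.295 to 0.476 up to 1.49 to 1.84. In each of these ratios the groups did not overlap. Itga4 over Itgb7 did overlap (0.720 to 1.11 against 0.429 to 0.960), and so did Fermt2 over Fermt3 (5.06 to 5.52 against 4.59 to 6.81).

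Of the 13 focal adhesion proteins 8 fell, none rose and 5 did not pass the test. Tensin 1 links the tails of beta subunits to actin. Its levels were 1241, 1267 and 1697 CPM in controls and 242, 452 and 334 CPM in tumours. All tumours were lower, 4.09-fold on the fitted scale (log2 fold change -2.03 ± 0.27 SE, adjusted p = 0.000577 by edgeR). Tns1 lies on chromosome 1 from 73956805 to 74171021 (minus strand, mm9).

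Of the parvins, adaptors in the complex of integrin-linked kinase, only Parvb passed the test. It fell from 36.5, 38.3 and 55.4 CPM to 4.10, 8.29 and 6.12 CPM, 7.03-fold and without overlap (log2 fold change -2.81 ± 0.30 SE, adjusted p = 0.000173 by edgeR). Parva was at 141, 136 and 162 CPM in controls and 132, 141 and 129 CPM in tumours, with overlapping groups (log2 fold change -0.13 ± 0.14 SE, adjusted p = 0.503), and per length Parva over Parvb went from 1.27 to 1.68 up to 7.37 to 14.0. Parvg, the blood cell parvin and the neighbour of Parvb on chromosome 15, was lower in each tumour than in each control but did not pass (log2 fold change -0.78, adjusted p = 0.116; without tumour replicate 2, -1.09, adjusted p = 0.0472). Integrin-linked kinase fell from 96.5 ± 2.9 to 63.1 ± 3.3 CPM (SD, n = 3; log2 fold change -0.61 ± 0.13 SE, adjusted p = 0.00536). Of the exon bases of Ilk 89.69% also lie in Rrp8 or Taf10, so its reads cannot be told from theirs; Taf10 fell by 0.44 and Rrp8 stood at -0.19 on the log2 scale.

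Vinculin, which reinforces the link of talin to actin, was at 317, 342 and 401 CPM in controls and at 109, 148 and 131 CPM in tumours. The groups were well apart (2.73-fold lower, log2 fold change -1.45 ± 0.18 SE, adjusted p = 0.000385 by edgeR). Its exons share 39.91% of their bases with Ap3m1, which fell by 0.95. Fermt2, the kindlin of most adherent cells, fell from 209, 217 and 207 CPM to 69.7, 109.7 and 86.9 CPM, 2.38-fold and without overlap (log2 fold change -1.25 ± 0.19 SE, adjusted p = 0.00102). Vcl and Fermt2 are shown by the 250 bases before their RefSeq start sites because both windows hold a CArG box, the motif bound by serum response factor, which controls many actin and smooth muscle genes; capitals mark the box. They lie at chr14:20929148-20929397 (plus strand) and chr14:45530066-45530315 (minus strand) of GRCm38.p6.
Vcl: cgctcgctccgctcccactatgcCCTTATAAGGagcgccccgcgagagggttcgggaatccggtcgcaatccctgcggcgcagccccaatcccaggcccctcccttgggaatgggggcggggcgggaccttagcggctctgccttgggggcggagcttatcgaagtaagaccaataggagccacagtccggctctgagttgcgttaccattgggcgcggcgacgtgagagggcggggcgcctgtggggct
Fermt2: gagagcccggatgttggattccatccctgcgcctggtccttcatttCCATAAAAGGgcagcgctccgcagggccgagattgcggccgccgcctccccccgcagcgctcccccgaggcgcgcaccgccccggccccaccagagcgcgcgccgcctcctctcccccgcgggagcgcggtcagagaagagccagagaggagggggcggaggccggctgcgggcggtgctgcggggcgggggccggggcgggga
The box was in 1.47% of all 32851 windows of this length, and among the 27 genes of the rule with a window in those of Vcl, Fermt2 and Itgb6. These matches describe letters, and a link between them and any level was not tested. In all 9 motifs were searched on both strands, and the 4 promoters were chosen for printing after the matches were seen. The others were the TEAD motif GGAATG (12.6% of windows; Itga10, Itgb1 and Vcl), CCGGAAG (6.91%; Ilk and Itga3), CAAGTG (11.6%; Itga8 and Itgb5), GGGGCGGG (15.0%; 8 genes), TTGCNNAA (9.56%; none) and TATAAA (12.4%; none). In the windows of the rule's genes, matches of different motifs shared bases in 1 case, the PU box and the TEAD motif of Itgb1.

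Of the talins, which activate integrins by binding the beta tail, Tln1 passed the test and Tln2 did not. Tln1 was at 404, 492 and 567 CPM in controls and at 303, 328 and 249.8 CPM in tumours. The groups did not overlap (log2 fold change -0.73 ± 0.19 SE, adjusted p = 0.0158 by edgeR), but the call was lost without control replicate 2, control replicate 3 or tumour replicate 4 (-0.72, -0.58 and -0.62). Tln2 was at 38.4, 48.3 and 53.5 CPM in controls and at 70.6, 60.1 and 62.5 CPM in tumours. Each tumour was higher, and the log2 fold change of 0.46 ± 0.16 missed the threshold (adjusted p = 0.0519 by edgeR; 0.0415 by DESeq2, 0.0468 by limma-voom). Per length, Tln2 over Tln1 was 0.0739 to 0.0769 in controls and 0.144 to 0.196 in tumours.

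Fermt3, the kindlin of blood cells, fell from 27.9 ± 1.9 to 12.1 ± 4.7 CPM (SD, n = 3; log2 fold change -1.21 ± 0.29 SE, adjusted p = 0.0102 by edgeR). Fermt1, the epithelial kindlin, had 65, 261 and 153 reads in controls and 269, 3 and 6 reads in tumours. Tumour replicate 1, at 4.40 CPM, was above all controls (1.77, 3.97 and 3.11 CPM), and the other tumours were near the limit of 3 reads. Its log2 fold change was -0.94 (adjusted p = 0.573) and -4.98 (adjusted p = 0.000177) without tumour replicate 1. Itgb4 likewise was above its controls in tumour replicate 1 and below them in the other tumours.

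Paxillin, a scaffold of early adhesions, was lower in every tumour, at 81.1 ± 12.01 against 57.5 ± 4.6 CPM (SD, n = 3; log2 fold change -0.50 ± 0.16 SE, adjusted p = 0.0331 by edgeR). The call was lost without control replicate 2 or 3 or tumour replicate 2 or 4 (-0.53, -0.34, -0.47 and -0.44). Focal adhesion kinase, Ptk2, was at 117, 130.3 and 129 CPM in controls and at 179, 116 and 126 CPM in tumours. The groups overlapped (log2 fold change 0.17 ± 0.19 SE, adjusted p = 0.520), and without tumour replicate 1, the highest library, the value was -0.02.

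**Figure D4:**
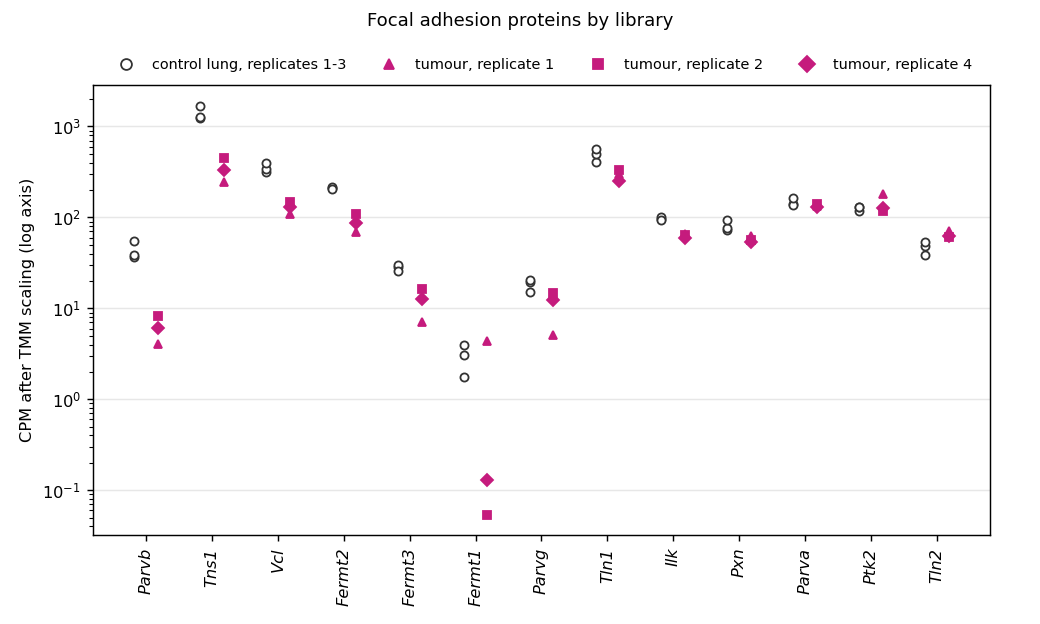
Level of the 13 focal adhesion proteins in every library, in CPM on a log axis, ordered from the most lowered to the most raised; open circles are the 3 controls and filled symbols the 3 tumours. Parvb, Tns1, Vcl and Fermt2 show tumours below all controls, Tln2 shows them above, and Fermt1 is split between tumour replicate 1 at 4.40 CPM and the others at 0.0539 and 0.130 CPM.

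Other proteins of focal adhesions, from a list of 44 chosen for their place in the adhesome, moved both ways. Of these, 10 rose, 18 fell and 16 did not pass the test, with a median log2 fold change of -0.32. Without control replicate 2, 6 rose. With all libraries 63.6% of the list passed, against 42% of all genes tested. The 5 with the smallest p among those that rose were Vasp, an actin elongation factor (48.6 to 117 CPM, log2 fold change 1.26 ± 0.16 SE), Lpp, a LIM protein of the zyxin family (277 to 503 CPM, 0.86 ± 0.15), the adaptor Nck2 (22.0 to 48.1 CPM, 1.13 ± 0.24), Dock1, an exchange factor for Rac (141 to 224 CPM, 0.67 ± 0.14), and Lims1. Lims1 and Lims2 encode PINCH proteins, the partners of integrin-linked kinase beside the parvins. Lims1 rose from 219 to 404 CPM (0.89 ± 0.19) and Lims2 fell from 34.2 to 1.28 CPM (-4.74 ± 0.38). Zyxin (Zyx) fell from 121 to 22.5 CPM (-2.42 ± 0.23), and Tgfb1i1, a relative of paxillin found in smooth muscle, from 33.1 to 7.01 CPM (-2.24 ± 0.22). Caveolin 1, Cav1, which is also a marker of alveolar type 1 cells and abundant in endothelium, fell from 694 to 34.1 CPM (-4.35 ± 0.23). All of these passed the test, with edgeR adjusted p of at most 0.00667.

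Of 30 integrin ligand genes, 28 had enough reads to be tested. Of those, 6 rose, 8 fell and 14 did not pass, with a median log2 fold change of -0.34. The 50% that passed compares with 42% of all genes tested (18.1% higher and 23.8% lower). Nephronectin, Npnt, the ligand of the receptor that contains Itga8, fell from 463, 478 and 518 CPM to 37.5, 32.4 and 33.1 CPM, 14.2-fold and without overlap (log2 fold change -3.83 ± 0.16 SE, adjusted p = 6.31e-06 by edgeR). Lamb3, a laminin beta chain of epithelial basement membranes, rose from 45.5 to 309 CPM (2.77 ± 0.20). Lama2 and Lama4, chains of mesenchymal and endothelial laminins, fell from 127 to 12.2 CPM (-3.38 ± 0.24) and from 125 to 37.2 CPM (-1.75 ± 0.17). Icam2, an endothelial ligand of LFA-1, fell from 80.1 to 4.95 CPM (-4.01 ± 0.21), and Fbln5, an elastic fibre protein, from 75.8 to 19.0 CPM (-1.99 ± 0.17). Lama1 (0.791 to 3.74 CPM, 2.23 ± 0.44), the fibrinogen chain Fga (0.628 to 2.80 CPM, 2.18 ± 0.50) and the basement membrane collagen Col4a1 (322 to 512 CPM, 0.67 ± 0.21, adjusted p = 0.0309 by edgeR) were also higher, the first pair from very low levels.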

How the data were processed

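Raw counts for 3 control and 3 tumour libraries were deposited by the authors. Per the file headers, featureCounts 1.6.5 assigned reads to exons by gene name (GENCODE vM1); a read over several names counts for each, and no strand option was set, so overlapping and antisense genes share reads. STAR (its version not given), limma, edgeR, R 3.6.0, GRCm38 and mm9 are named in the submitters' processing notes; the table's coordinates are mm9.

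Genes passing filterByExpr (minimum count 10) were tested with edgeR 4.0.16 in R 4.3.3: TMM scaling, quasi-likelihood F test with group as the only term, Benjamini-Hochberg adjustment, threshold 0.05. Standard errors derive from F. Per-length levels are CPM per kilobase of exon. The members and lists were chosen with earlier results of these data known. The method was run on simulated counts in which few genes changed, as many up as down. That run did not cover changes as widespread as those seen here. Named were all members and, from each pathway list, the 5 genes of smallest p in each direction; some genes that this rule takes are not reported here. Of 200 list entries, 197 matched by name and 3 by older names. Alternatives were DESeq2 1.42.0, limma-voom (limma 3.58.1), other scalings, no filter, a threshold of 0.01, a 2-fold test, a replicate block and each library left out. Promoters came from RefSeq (GRCm38.p6), matched by symbol for 27 of 39 members. Shared 32-base words were counted in GENCODE M21 transcripts.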

Additional observations from a re-analysis of the deposited data

How the results depend on the processing

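Over all genes, the 39 and the pathway lists, the counts of calls stayed within 1.5 times those reported with DESeq2, limma-voom, the other scalings and no filter. A threshold of 0.01 left 2073 genes higher of all tested, and 18 other adhesome genes called, 6 of them higher. A test against a 2-fold change left 3965 genes (1056 higher, 2909 lower), 12 of the 39 (2 and 10) and 8 other adhesome genes (0 and 8). The libraries share only the numbers 1 and 2. Deviations of same-numbered libraries had correlations of -0.182 and -0.00858, and those of differently numbered ones -0.122 to 0.177. With 3 libraries per group these values cannot decide whether the numbers pair the libraries. A replicate block left 3641 genes (1092 higher, 2549 lower) and 13 of the 39 (2 and 11). It also left 11 other adhesome genes (2 and 9) and 9 ligands (1 higher). With 1 library left out, 17 to 26 of the 39 were called (3 to 5 higher, 14 to 21 lower), and 6 to 11 other adhesome genes were higher, the lowest without control replicate 2.

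Directions turned only among genes that did not pass the test. Itgb4 was at 0.0497 with the block and from -1.90 to 0.16 with 1 library left out, positive without control replicate 3, tumour replicate 2 or tumour replicate 4. Itgad was at -0.0625 with library size alone, -0.33 with the block, and from -0.15 to 0.35 with 1 library left out. Itgax was at -0.15 with the block, and over the same fits Itgb2 ran from -0.57 to 0.28 and Ptk2 from -0.0197 to 0.29, both turning without tumour replicate 1. Scaling to library size alone moved the median of all genes from 0.01 to -0.10; Itga6 then lost its call, and Itgb6, Itgae and Parvg passed (-0.63, -0.80 and -0.93). Without division by length the change in share was -2.51 (Itgb7) and -2.97 (Itgb3) percentage points, against -3.66 and -2.03. These versions of the shares differ only in the division by exon length, 2743 bases for Itgb7 and 5845 for Itgb3. The cause of the other shifts was not tested. Fermt1 with 3 and 6 reads in 2 tumours is at the limit of depth.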

Other observations

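The rule left out 6 genes whose symbols begin with Itgb and which were looked at after their values were seen. Of these, 2 rose, 2 fell and 2 did not pass the test, where 42% of all genes passed (18.1% higher and 23.8% lower). Itgb1bp1 is also counted in the list of 44 other focal adhesion proteins above. Itgb2l, a relative of Itgb2, rose from 6.22, 5.33 and 7.51 CPM in controls to 26.8, 26.8 and 29.7 CPM in tumours. All tumours were above all controls (log2 fold change 2.13 ± 0.18 SE, adjusted p = 7.17e-05 by edgeR). Itgb1bp1, whose product ICAP-1 binds the tail of beta 1 and competes with talin, rose from 22.0 ± 0.9 to 29.6 ± 1.5 CPM (SD, n = 3; adjusted p = 0.0347 by edgeR). Itgbl1, an integrin-like protein without a membrane anchor, fell from 5.65, 7.58 and 5.50 CPM to 0.294, 0.233 and 1.34 CPM (log2 fold change -3.34 ± 0.65 SE, adjusted p = 0.00379 by edgeR). Itgb1bp3 fell from 8, 44 and 35 reads to 4, 1 and 0 reads (log2 fold change -4.07, adjusted p = 0.00510 by edgeR), near the limit of depth. Itgb1bp2 and Itgb3bp did not pass, at log2 fold changes of -0.59 and 0.35. Within the groups, the highest library of the 39 genes was a median of 1.33 times the lowest among controls and 1.80 times among tumours. The spread among tumours was widest for the epithelial and the leukocyte and platelet integrins, with medians of 2.27 and 2.24.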
